A study of Homo sapiens with 12 samples.

Results

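The mitochondrial genome of THP1 monocytes was followed through its 37 annotated genes, all rows of the count table whose symbol starts with MT-, of 58735 rows in all. They comprise 13 mRNAs, 2 rRNAs and 22 tRNAs, and each class is described apart. THP1 is a human monocytic leukemia cell line. RNA sequencing was carried out on 4 groups of THP1 cells with 3 libraries each, with total counts between 15439836 and 22092600 per library. In the mono-culture group, THP1 cells were kept alone for 24 h in complete endothelial cell medium. The other 3 groups spent the same 24 h in a transwell insert with 1 µm pores above endothelial cells (ECs) from human umbilical vein. These ECs had been given DMSO (control ECs), etoposide, a DNA-damaging drug that makes them senescent (senECs), or etoposide and afterwards epigallocatechin gallate, a green tea catechin (EGCG-treated senECs). All THP1 cells, mono-culture included, then received 100 ng/ml lipopolysaccharide for 2 h before RNA isolation, so that no group shows unstimulated cells. The libraries carry the replicate numbers 1, 2 and 3 in mono-culture and with control ECs, and 1, 2 and 5 in both senEC groups. Values below are listed in that order. No source says that the libraries of a group came from separate cultures, so that p-values measure the spread between these libraries only. The questions put to the data were whether mitochondrial transcripts of the monocytes differed after co-culture with ECs, with senECs in place of control ECs, and with EGCG-treated senECs in place of senECs.

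Mitochondrial DNA is a small circle that is copied into long transcripts from both strands. The heavy-strand transcript carries both rRNAs, most of the tRNAs and all but a single mRNA, whereas the light-strand transcript carries MT-ND6 and the remaining tRNAs. The tRNAs lie between most of the other genes like punctuation, and the transcripts are cut at their ends. The mRNAs encode core subunits of complexes I, III and IV of the respiratory chain and of the ATP synthase (complex V), and all other subunits come from the nucleus. Mature mitochondrial mRNAs, except MT-ND6, carry short poly(A) tails, the rRNAs carry still shorter ones, and tRNAs end in an added CCA.

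In GENCODE release 29 (GRCh38), the 37 genes span chrM:577-16023, and 12 of the 13 mRNAs and 14 of the 22 tRNAs belong to the heavy-strand transcript. Several neighbours share bases, and reads there cannot be given to 1 gene with certainty. The 2 overlaps between mRNAs of more than 1 base are printed because they bear on the levels of MT-ATP8 and MT-ND4L. Shared bases are in capitals with 25 bases on each side, on the plus strand at chrM:8502-8597 and chrM:10735-10791 respectively.
MT-ATP8/MT-ATP6: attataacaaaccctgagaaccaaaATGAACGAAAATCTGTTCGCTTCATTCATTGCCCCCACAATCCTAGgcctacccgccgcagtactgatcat
MT-ND4L/MT-ND4: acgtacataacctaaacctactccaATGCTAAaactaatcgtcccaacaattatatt
In both, the capitals open with ATG, the start codon of the downstream gene. The overlap took up 46 of the 207 bases of MT-ATP8 and left 161 bases of its own, whereas MT-ND4L shared 7 of its 297 bases.

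Counts on the 13 mRNAs made up a few percent of each library, and all senEC co-cultures exceeded mono-culture and control ECs in it. The share in percent was 3.41, 2.87 and 3.21 in mono-culture, 3.23, 3.26 and 3.29 with control ECs, 3.72, 3.46 and 3.74 with senECs and 3.55, 4.33 and 2.85 with EGCG-treated senECs. All 3 senEC libraries were above all 6 libraries of mono-culture and control ECs, whereas the EGCG-treated group held both the highest and the lowest of the 12 values. Means were 3.16% ± 0.273 (SD, n = 3), 3.26% ± 0.0316 (SD, n = 3), 3.64% ± 0.155 (SD, n = 3) and 3.58% ± 0.741 (SD, n = 3) in the same order. The SD with EGCG-treated senECs exceeded the difference of its mean from any other group. Without the 3 complex IV mRNAs the means were 1.72%, 1.81%, 2.03% and 2.01%, in the same order of groups. As a sum over the members the share was not tested, and in bulk RNA fewer cells of a type and less RNA per cell cannot be told apart.

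**Figure D1:**
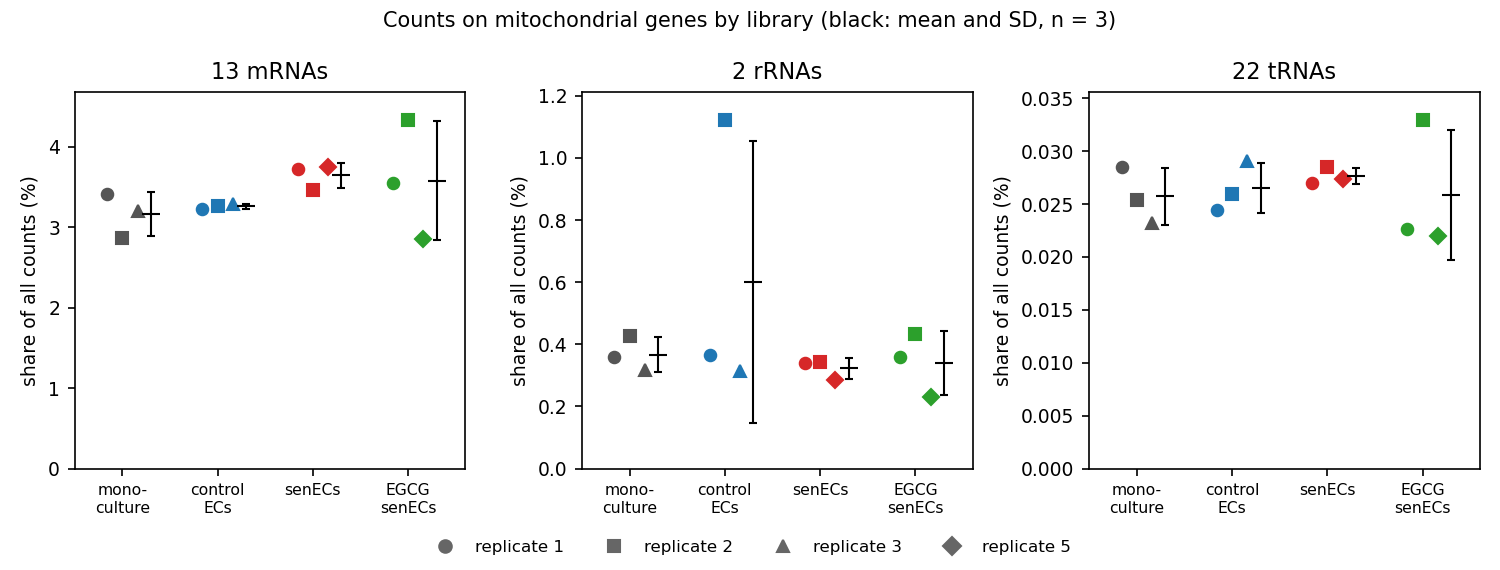
Share of all counts (%) on mitochondrial mRNAs, rRNAs and tRNAs in each of the 12 libraries, with the mean and SD (n = 3) of each group in black. The senEC libraries lie above control ECs and mono-culture for mRNAs, and replicate 2 with control ECs stands alone at 1.12% for rRNAs.

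The rRNAs behaved differently from the mRNAs. Their share in percent was 0.359, 0.425 and 0.317 in mono-culture, 0.364, 1.12 and 0.316 with control ECs, 0.341, 0.342 and 0.285 with senECs and 0.360, 0.434 and 0.230 with EGCG-treated senECs. A single library, replicate 2 with control ECs, was far above the other 11, and its mRNA share lay between those of the other 2 control EC libraries. The tRNA share was small, between 0.0220% and 0.0330%, and the groups overlapped. Intervals for counting error are narrow at these depths and were not the limit for rRNAs and for mRNAs other than MT-ATP8. They matter for MT-ATP8, with 339 to 437 counts per library, and for tRNAs, most of which had few counts.

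**Figure D2:**
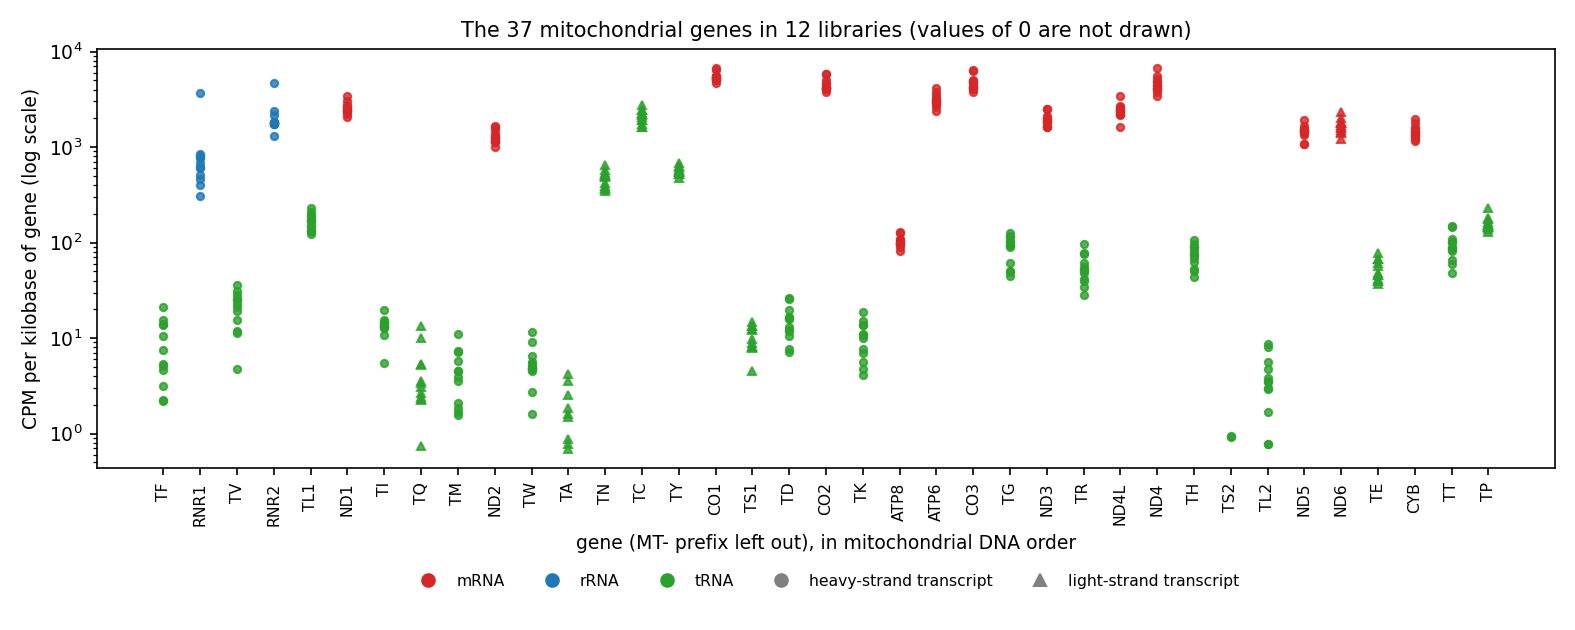
CPM per kilobase of gene length (log scale) of the 37 mitochondrial genes in 12 libraries, in the order of the genes on mitochondrial DNA, with colours for the class and symbols for the transcript strand. The mRNAs except MT-ATP8 lie near the top, and MT-TC stands highest among the tRNAs. The means of MT-TC (2099 CPM per kilobase) and of the rRNA MT-RNR2 (2067) lie within the range of those mRNAs. These were mRNA libraries, and how RNA was selected for them was not given in the sources used here. Levels of rRNAs, tRNAs and mRNAs can therefore not be read against each other as abundance in the cells.

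Levels of the mRNAs, as TMM-scaled CPM (counts relative to library size) per kilobase of gene length, followed nearly the same order in each library. MT-CO1, the catalytic subunit of complex IV, was highest with 5453 ± 569 CPM per kilobase (SD, n = 12 libraries), and was above MT-CO3 in 12 of 12 libraries. MT-CO3 (4740.2 ± 827 CPM per kilobase), MT-ND4 (4617 ± 881) and MT-CO2 (4555 ± 697) followed (SD, n = 12 each) and were not separated. MT-CO3 was above MT-ND4 in 6 libraries, and MT-ND4 was above MT-CO2 in 8. Next came MT-ATP6 (3146 ± 487), MT-ND1 (2587 ± 384) and MT-ND4L (2416 ± 418), again in CPM per kilobase, with MT-ND1 above MT-ND4L in 9 libraries. Lower levels were found for MT-ND3 (1965 ± 304), MT-ND6 (1689 ± 298) and MT-CYB (1467 ± 235). MT-ND5 (1458 ± 231) and MT-CYB were not separated, since MT-CYB was above MT-ND5 in 5 libraries, and MT-ND2, below MT-ND5 in 10 libraries, had 1305 ± 206 CPM per kilobase. MT-ND4L was above MT-ND3 in 10, MT-ND3 above MT-ND6 in 11 and MT-ND6 above MT-CYB in 11. MT-ATP8 was far below all others with 103 ± 13.5 CPM per kilobase. Its counts were 0.854% to 1.20% of those of MT-ATP6, with which it shares a transcript and 46 bases. How the counting treated reads in 2 genes was not given in the sources used here, so the levels of MT-ATP8 and MT-ND4L are uncertain.

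The 7 complex I mRNAs together took 41.3% to 46.1% of the mRNA counts, and the 3 complex IV mRNAs 42.6% to 48.2%. Replicate 2 of mono-culture had the lowest complex I and the highest complex IV part, and replicate 2 with EGCG-treated senECs the reverse. The ratio of MT-CO2 to MT-CO1 counts was 0.355, 0.371 and 0.340 in mono-culture, 0.353, 0.346 and 0.345 with control ECs, 0.410, 0.379 and 0.403 with senECs and 0.383, 0.391 and 0.356 with EGCG-treated senECs. All 3 senEC libraries were above the 6 libraries of mono-culture and control ECs. The light-strand mRNA MT-ND6 stood to its neighbour MT-ND5 at a count ratio of 0.298, 0.389 and 0.388 in mono-culture, 0.274, 0.312 and 0.306 with control ECs, 0.313, 0.351 and 0.405 with senECs and 0.337, 0.348 and 0.324 with EGCG-treated senECs. These ratios are given as values and were not tested. MT-ND6 and the light-strand tRNAs lie opposite the heavy-strand transcript, and since the strand setting of the counting was not given in the sources used here, reads of both strands cannot be told apart there.

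Against control ECs, all 13 mRNAs were higher with senECs, by a median log2 fold change of 0.26, but no mRNA, rRNA or tRNA passed the test. With edgeR's quasi-likelihood test and Benjamini-Hochberg adjustment over 25873 rows, 0 of the 36 members tested had an adjusted p below 0.05, against 0% of all rows. At an unadjusted p below 0.05 there were 6 members with edgeR and 4 with DESeq2, where DESeq2 also called 0 members. The background at that unadjusted threshold was 6.61% of all rows with edgeR and 1417 of the 25873 rows with DESeq2. Of the 13 mRNAs, 3 were among them, MT-ND2, MT-CO2 and MT-CO3, all higher (background of higher rows 2.86%). The fold changes ranged from 0.05 for MT-ND4L to 0.33 for MT-CO2. The median over all rows was -0.01, and 49.2% of all rows were above 0. Since the 13 mRNAs come from 2 transcripts, their shared direction is not 13 separate observations. The groups did not overlap for 7 mRNAs, MT-ND2, MT-CO2, MT-ATP8, MT-ATP6, MT-ND4, MT-ND6 and MT-CYB, all higher (background 5.31%). The median was lowest, 0.16, without replicate 5 of the senECs and highest, 0.30, without replicate 2 of the senECs.

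Complex I, the entry point of electrons from NADH, has 7 of its subunits on mitochondrial DNA. MT-ND2, a subunit of its proton-pumping membrane arm, was measured at 1302, 1038 and 1181 CPM in mono-culture, 1251, 1207 and 1344 with control ECs, 1559, 1356 and 1706 with senECs and 1428, 1738 and 1206 with EGCG-treated senECs. The 3 senEC values were above all 6 values of mono-culture and control ECs. The difference from control ECs was 0.28 ± 0.13 (log2, standard error, edgeR, adjusted p = 0.728). MT-ND4, another pumping subunit, was measured at 6197, 4742 and 5555 CPM in mono-culture, 5626, 5943 and 5767 with control ECs, 7112, 6633 and 7674 with senECs and 6664, 9207 and 5218 with EGCG-treated senECs. Here too the senEC and control EC libraries did not overlap, with a log2 difference of 0.31 ± 0.15 (edgeR, adjusted p = 0.728). MT-ND1, which helps form the quinone site, was measured at 2259.7, 1962 and 2321 CPM in mono-culture, 2203, 2349.6 and 2579 with control ECs, 2649, 2522 and 2928 with senECs and 2469, 3307 and 2133 with EGCG-treated senECs. Replicate 2 with senECs lay below replicate 3 with control ECs, so the groups overlapped.

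Of the other complex I mRNAs, MT-ND6 did not overlap between senECs and control ECs, whereas MT-ND5, MT-ND3 and MT-ND4L did. MT-ND5, the largest of the pumping subunits, was measured at 2812, 1952 and 2436 CPM in mono-culture, 2679.8, 2557 and 2771 with control ECs, 2996, 2721 and 2627 with senECs and 2685, 3512 and 1963 with EGCG-treated senECs. Its senEC libraries spread across the control ECs, at a log2 difference of 0.06 ± 0.16 (edgeR, adjusted p = 0.953). MT-ND6, the mRNA of the light strand, was measured at 838, 758 and 944 CPM in mono-culture, 733, 798 and 847 with control ECs, 938, 955 and 1065 with senECs and 904, 1222 and 636 with EGCG-treated senECs. All senEC libraries exceeded the control ECs, and the log2 difference was 0.31 ± 0.16 (edgeR, adjusted p = 0.728). MT-ND3 was measured at 666, 636 and 567 CPM in mono-culture, 636, 559 and 687 with control ECs, 738, 655 and 872 with senECs and 692, 876 and 576 with EGCG-treated senECs, with replicate 2 of the senECs below replicate 3 of the control ECs, at a log2 difference of 0.27 ± 0.14. MT-ND4L was measured at 772, 481 and 636 CPM in mono-culture, 693, 741 and 729 with control ECs, 797, 717 and 718 with senECs and 654, 1015 and 657 with EGCG-treated senECs. Both are small membrane subunits, and for both the senEC and control EC libraries overlapped. The log2 difference of MT-ND4L was 0.05 ± 0.16, and it turned to -0.01 without replicate 1 of the senECs.

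Complex IV, which passes electrons to oxygen, is built around 3 mitochondrially encoded subunits. MT-CO2, which receives electrons from cytochrome c, was measured at 2848, 2849 and 2862 CPM in mono-culture, 2768, 2765 and 2931 with control ECs, 3419, 3220.2 and 4003 with senECs and 3149, 4017 and 2559 with EGCG-treated senECs. It had the largest log2 difference of the mRNAs between senECs and control ECs, 0.33 ± 0.13 (edgeR, adjusted p = 0.728), with no overlap. MT-CO1 was measured at 8010.5, 7689 and 8414 CPM in mono-culture, 7844, 7998 and 8508 with control ECs, 8339.8, 8492 and 9934 with senECs and 8222, 10262 and 7188 with EGCG-treated senECs. Its log2 difference of 0.14 ± 0.12 was among the smallest, and the groups overlapped. MT-CO3, a structural core subunit, was measured at 3298, 2969 and 3418 CPM in mono-culture, 3211, 3243 and 3831 with control ECs, 3941, 3742 and 4913 with senECs and 3772, 4989 and 3268 with EGCG-treated senECs. Replicate 3 with control ECs exceeded replicate 2 with senECs, and the log2 difference was 0.29 ± 0.14 (edgeR, adjusted p = 0.728).

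MT-CYB, the only mitochondrially encoded subunit of complex III, was measured at 1608, 1322 and 1504 CPM in mono-culture, 1523, 1534 and 1631 with control ECs, 1804, 1791 and 2039 with senECs and 1677, 2265 and 1392 with EGCG-treated senECs. The senEC libraries were above all libraries of mono-culture and control ECs, and the log2 difference from control ECs was 0.26 ± 0.14 (edgeR, adjusted p = 0.728). MT-ATP6, part of the proton channel of the ATP synthase, was measured at 2087, 1626 and 1978 CPM in mono-culture, 2041, 1909 and 2118 with control ECs, 2397, 2121 and 2569 with senECs and 2217, 2838 and 1810.5 with EGCG-treated senECs. MT-ATP8, a small stator subunit, was measured at 21.1, 18.5 and 20.2 CPM in mono-culture, 20.2, 17.1 and 19.8 with control ECs, 20.9, 22.8 and 21.9 with senECs and 26.6, 26.1 and 19.8 with EGCG-treated senECs. For both, senECs and control ECs did not overlap, and the log2 differences were 0.22 ± 0.14 and 0.20 ± 0.13 respectively.

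Against mono-culture, the senEC libraries were again higher for each mRNA, and no difference passed the test. All 13 mRNAs were higher, by a median log2 fold change of 0.31 (all rows -0.02, 48% above 0). No member passed edgeR's test, where 0.309% of all rows did, and the smallest adjusted p of a member was 0.256. DESeq2 called 0 members as well, with a smallest adjusted p of 0.0846. Unadjusted p was below 0.05 for 8 members with each tool (background 11% with edgeR and 2622 of the 25873 rows with DESeq2). The 7 mRNAs among them in edgeR, MT-ND1, MT-ND2, MT-CO2, MT-ATP6, MT-CO3, MT-ND4 and MT-CYB, were also those whose groups did not overlap (background of rows higher without overlap 8.18%). MT-ND2 differed by 0.39 ± 0.13 (log2, edgeR, adjusted p = 0.256), MT-CO3 by 0.38 ± 0.14 (adjusted p = 0.324) and MT-ND4 by 0.38 ± 0.15 (adjusted p = 0.370). MT-ATP8 had the smallest difference, 0.13 ± 0.13. Replicate 2 of mono-culture was the lowest of the 12 libraries for 8 of the 13 mRNAs, and without it the median was 0.24. The comparisons of senECs with control ECs and with mono-culture share the senEC libraries.

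**Figure D3:**
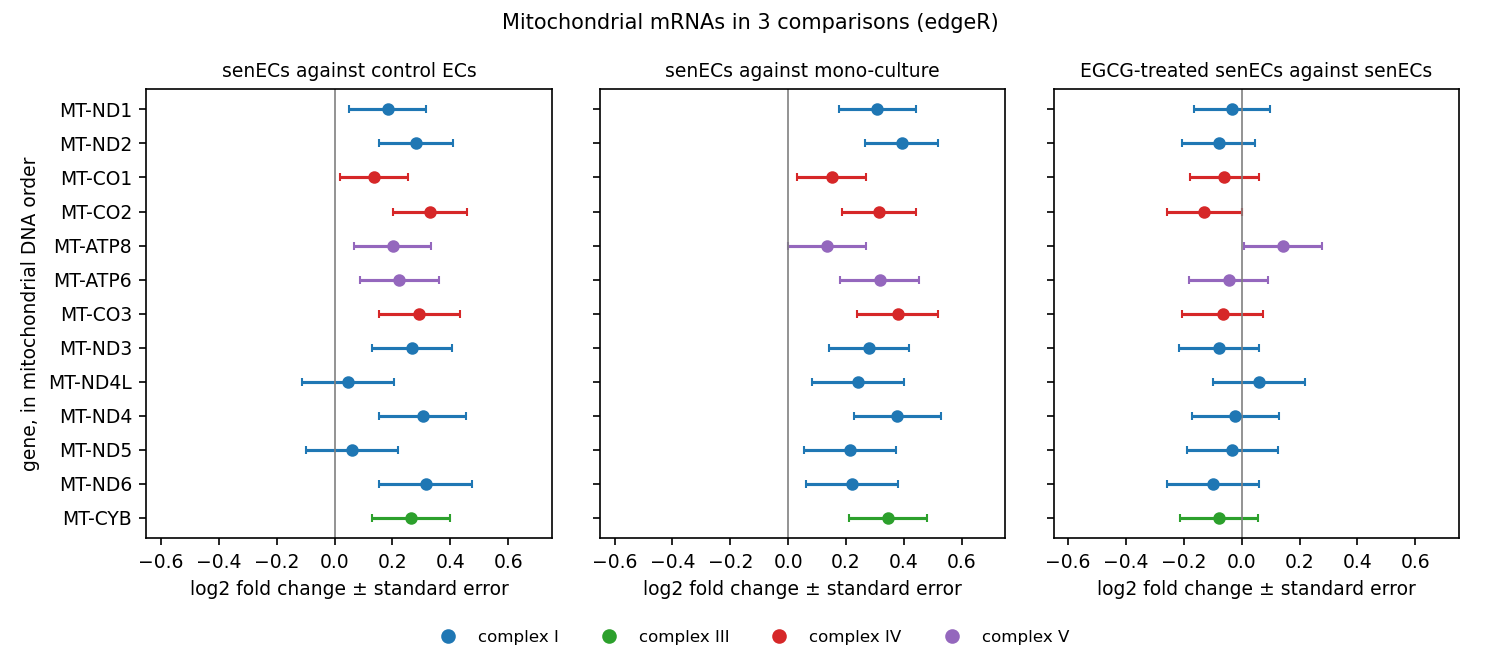
Log2 fold changes of the 13 mitochondrial mRNAs with their standard errors (edgeR), in the order of the genes on mitochondrial DNA, coloured by respiratory complex. All 13 points lie above 0 for senECs against control ECs and against mono-culture, 2 of 13 do for EGCG-treated senECs against senECs, and 0 of the 36 members tested passed an adjusted p of 0.05 in any of these comparisons.

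Between EGCG-treated senECs and senECs the mRNA differences lay within the spread of the former. The median log2 fold change of the 13 mRNAs was -0.06 (all rows 0.00), from -0.13 for MT-CO2 to 0.14 for MT-ATP8, and 2 of 13 were above 0 (all rows 49.9%). Neither edgeR nor DESeq2 called a member (background 0% of all rows with edgeR). Unadjusted p was below 0.05 for 0 members with either tool (background 2.22% with edgeR and 373 of the 25873 rows with DESeq2). Replicate 2 with EGCG-treated senECs was the highest of the 12 libraries for 12 of the 13 mRNAs, and replicate 5 was the lowest for 3. The median became -0.25 without replicate 2 and 0.10 without replicate 5 of that group, so that its sign depended on which library was kept. For MT-ND4 the log2 difference was -0.02 ± 0.15 (standard error), and a p above the threshold does not show that the groups were alike.

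Against control ECs, EGCG-treated senECs gave a median log2 fold change of 0.19, with 13 of 13 mRNAs above 0 (all rows 50%). Against mono-culture the median was 0.27, also with 13 of 13 above 0 (all rows 49.6%). Without replicate 2 of the EGCG-treated group these medians were -0.01 and 0.06, and without its replicate 5 they were 0.32 and 0.41. No member passed the test of edgeR or DESeq2 in either comparison (edgeR background 0% and 0.213% of all rows, smallest adjusted p of a member 0.979 and 0.489). Unadjusted p was below 0.05 for 3 and 4 members with edgeR (background 4.55% and 8.58%). With DESeq2 there were 2 and 6 members, against 883 and 2010 of the 25873 rows. For control ECs against mono-culture the median was 0.08, with 10 of 13 mRNAs above 0 (all rows 50.7%). That median was 0.00646 without replicate 2 and 0.15 without replicate 1 of mono-culture. No member was called there by either tool (edgeR background 0.143%). An unadjusted p below 0.05 was found in edgeR for 2 members, MT-RNR1 and MT-TH (background 6.52%). DESeq2 also had 2 members below it, against 1463 of the 25873 rows. For the 3 co-cultures together against mono-culture the median was 0.23 with 13 of 13 mRNAs above 0 (all rows 47.6%). Neither tool called a member (edgeR background 0.723%). An unadjusted p below 0.05 was found for 6 members with edgeR (background 10.7%) and 7 with DESeq2 (2504 of the 25873 rows).

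The 2 rRNAs of the mitochondrial ribosome, MT-RNR1 of the small and MT-RNR2 of the large subunit, were set apart by replicate 2 with control ECs. MT-RNR1 was measured at 582, 752 and 386 CPM in mono-culture, 778, 3547 and 484 with control ECs, 646, 593 and 437 with senECs and 731, 804 and 296 with EGCG-treated senECs. In that library it was 4.41 times the next highest of the 12. MT-RNR2 was measured at 2868, 3407 and 2759 CPM in mono-culture, 2743, 7349.9 and 2753 with control ECs, 2718, 2859 and 2687 with senECs and 2780.1, 3728 and 2015 with EGCG-treated senECs, and the same library was 1.97 times the next highest. Among the other 11 libraries all 4 groups overlapped for MT-RNR1. For MT-RNR2 the remaining 2 control EC libraries lay just below all 3 of mono-culture, and the other pairs of groups overlapped. The ratio of MT-RNR1 to MT-RNR2 counts was 0.483 in that library. In the other 11 it lay between 0.140 and 0.284, so the 2 rRNAs were not raised in proportion.

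Fold changes of the rRNAs that involve control ECs therefore rested on 1 library. MT-RNR1 differed by 1.48 ± 0.49 between control ECs and mono-culture (log2, edgeR, adjusted p = 0.521), and without replicate 2 of the control ECs by 0.14. Between senECs and control ECs it differed by -1.52 ± 0.49 (adjusted p = 0.728), and without that library by -0.18. MT-RNR2 differed by 0.51 ± 0.27 and -0.64 ± 0.27 in the same comparisons, and by -0.13 and 0.00335 without the library. EGCG-treated senECs against control ECs gave -1.39 ± 0.49 for MT-RNR1 and -0.59 ± 0.27 for MT-RNR2, and -0.05 and 0.05 without it. Between senECs and mono-culture, groups that do not include that library, the log2 differences were -0.04 ± 0.48 and -0.13 ± 0.27.

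Some nuclear rows stood out in the same library. Of 8217 rows with at least 20 CPM in a library, 5 exceeded the next highest library by more than 1.5 times in replicate 2 with control ECs. Besides both mitochondrial rRNAs these were FP236383.2, MALAT1 and KCNQ1OT1. FP236383.2, a row at chr21:8393419-8394341 that lies inside the nuclear rRNA genes RNA18SN3 and RNA45SN3 of RefSeq, had 571 counts there against 0 to 24 in the other 11. MALAT1, a long RNA kept in the nucleus, had 1300.0 CPM against 203 to 461. The mitochondrial mRNAs were not raised in it, as 2 of the 13 had their lowest value of the 12 libraries there. What set this library apart was not tested. By the same measure 15 rows stood out in replicate 5 with senECs, led by the calcium-binding alarmin S100A8, and 8 in replicate 5 with EGCG-treated senECs, led by the interferon-induced MX1.

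**Figure D4:**
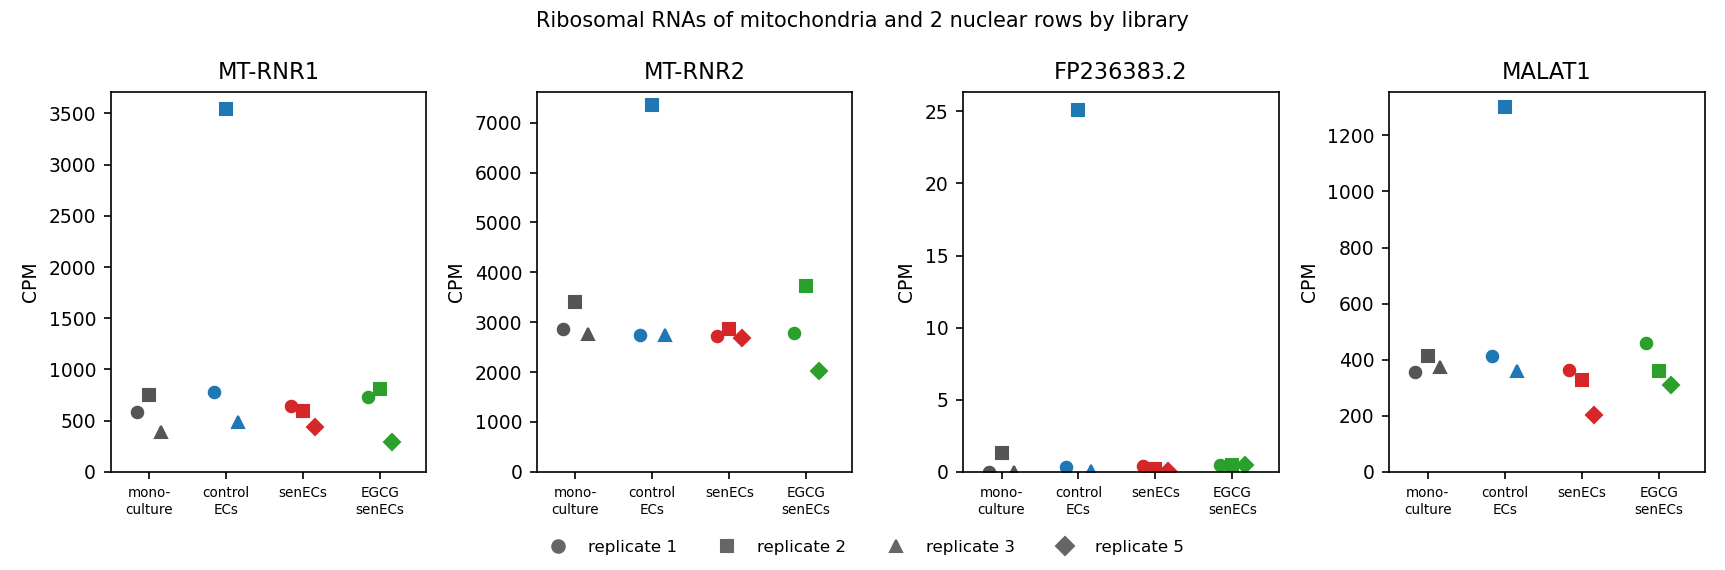
CPM by library of the mitochondrial rRNAs MT-RNR1 and MT-RNR2, of FP236383.2, a row within nuclear rRNA genes, and of MALAT1, with symbols for the replicate number. Replicate 2 with control ECs (blue square) is the highest of the 12 libraries in all 4 panels.

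The tRNAs, which carry amino acids to the mitochondrial ribosome, had uneven counts. MT-TC, MT-TN, MT-TY and MT-TA lie side by side on the light strand, and printed together they show that genes of nearly equal length held very different counts. The sequences are those of GENCODE release 29 (GRCh38), minus strand, at chrM:5587-5655 (MT-TA), chrM:5657-5729 (MT-TN), chrM:5761-5826 (MT-TC) and chrM:5826-5891 (MT-TY), without the added CCA. The base in capitals is the 1 base that MT-TC and MT-TY share.
MT-TA: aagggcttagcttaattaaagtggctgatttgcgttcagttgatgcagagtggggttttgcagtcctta
MT-TN: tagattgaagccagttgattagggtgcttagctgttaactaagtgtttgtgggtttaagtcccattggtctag
MT-TC: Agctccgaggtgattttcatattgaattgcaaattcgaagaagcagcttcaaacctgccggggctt
MT-TY: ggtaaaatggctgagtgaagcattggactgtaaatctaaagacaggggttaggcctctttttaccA
MT-TC, for cysteine, had 2367, 2516 and 2294 counts in mono-culture, 2375, 2894 and 2908 with control ECs, 2738, 2601 and 2665 with senECs and 1753, 2889 and 2004 with EGCG-treated senECs. MT-TA, for alanine, at 69 bases about as long as MT-TC at 66, had between 0 and 5 counts in every library. MT-TY, for tyrosine, had 584, 667 and 620 counts in mono-culture, 866, 780 and 706 with control ECs, 671, 701 and 612 with senECs and 515, 712 and 695 with EGCG-treated senECs. MT-TN, for asparagine, had 587, 661 and 521 counts in mono-culture, 554, 617 and 703 with control ECs, 720, 649 and 699 with senECs and 412, 741 and 573 with EGCG-treated senECs. MT-TC was thus above these neighbours in all 12 libraries. In CPM, senECs overlapped control ECs for all 3. With senECs MT-TN was above mono-culture without overlap (background 8.18%), at a log2 difference of 0.21 ± 0.19 (edgeR, adjusted p = 0.731). Whether these counts come from tRNAs or from longer precursors cannot be told apart.

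Of the 22 tRNAs, 16 had a mean of at least 10 counts per library. After the 3 above came MT-TL1 for leucine with a mean of 229 counts per library, MT-TP for proline with 198, MT-TT for threonine with 111 and MT-TG for glycine with 106. MT-TH for histidine had a mean of 94.1 counts, MT-TE for glutamate 66.1 and MT-TR for arginine 64.9. The other 6, MT-TV, MT-TD, MT-TI, MT-TK, MT-TS1 and MT-TF, had means between 11.7 and 26.8 counts. MT-TL1 lies directly behind MT-RNR2, MT-TP at the end of the gene map on the light strand. The remaining 6 of the 22 had means below 10 counts, down to MT-TS2 with 2 counts in the 12 libraries together, which was not tested.

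No tRNA passed the test in any comparison, and at low counts only large differences could be resolved. Between senECs and control ECs the median log2 fold change of the 21 tested was -0.18. Only 1 of 21, MT-TV for valine, had an unadjusted p below 0.05 (edgeR), against 6.61% of all rows. That is no larger a share than over all rows. MT-TV lies between both rRNAs at chrM:1602-1670 (plus strand), and its GENCODE sequence is shown because it is cut out between the rRNA ends.
MT-TV: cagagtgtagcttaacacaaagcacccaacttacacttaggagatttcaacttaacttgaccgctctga
It had 31, 29 and 6 counts in mono-culture, 37, 56 and 31 with control ECs, 26, 14 and 13 with senECs and 35, 23 and 20 with EGCG-treated senECs. The senEC libraries were below all control EC libraries, at a log2 difference of -1.01 ± 0.47 (edgeR, adjusted p = 0.728). This held for 1 of the 21 tested tRNAs (background of rows lower without overlap 5.66%). The highest count was in replicate 2 with control ECs, the library in which both rRNAs were highest. That library also held the highest CPM of MT-TF, MT-TI, MT-TQ, MT-TM, MT-TK and MT-TH, 7 of the 21 tested tRNAs with MT-TV, and replicate 2 with EGCG-treated senECs held that of 8. Against mono-culture the tRNA medians were 0.47 for control ECs, 0.30 for senECs and 0.24 for EGCG-treated senECs. Those medians give low-count tRNAs the same weight as MT-TC.

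MT-TH was higher with control ECs than in mono-culture without overlap, with 76, 65 and 55 counts in mono-culture, 110, 167 and 101 with control ECs, 128, 89 and 72 with senECs and 101, 97 and 68 with EGCG-treated senECs. The log2 difference was 0.70 ± 0.25 (edgeR, adjusted p = 0.606). In that comparison 4 tRNAs, MT-TL1, MT-TW, MT-TH and MT-TE, were higher without overlap (background 6.25%). MT-TT had 87, 59 and 105 counts in mono-culture, 91, 136 and 129 with control ECs, 129, 117 and 160 with senECs and 93, 154 and 74 with EGCG-treated senECs. With senECs MT-TT was above mono-culture in 3 of 3 libraries without overlap, at 0.68 ± 0.30 (log2, edgeR, adjusted p = 0.407). In that comparison 4 of the 21 tested tRNAs, MT-TA, MT-TN, MT-TR and MT-TT, were higher without overlap (background 8.18%).

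Copies of mitochondrial genes also lie in nuclear chromosomes and can take reads from them. Of 407 such rows, 6 had a mean of at least 10 counts per library. MTND2P28 (chr1:629640-630683), the largest, had counts that were 29.2% to 33.6% of those of MT-ND2. MTATP6P1 (chr1:633696-634376) stood at 7.08% to 9.01% of MT-ATP6, and MTCO1P12 (chr1:631074-632616) at 0.409% to 0.518% of MT-CO1. All 3 lie close together on chromosome 1 in the order of the mitochondrial genes. The ratios moved little between libraries, and MTND2P28 differed by 0.22 ± 0.14 between senECs and control ECs (log2, edgeR, adjusted p = 0.745), near the value of MT-ND2. Reads of MT-ND2 and of this copy could not be told apart in a count table, so the level of MT-ND2 is uncertain to that extent. The other 3, MTND4P12, MTND5P11 and MTCO1P28, had means of 19.7, 14.0 and 13.8 counts.

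Nuclear genes that serve the mitochondrial genome were measured from lists. Of 33 genes for transcription and maintenance of mitochondrial DNA, 0 passed edgeR's test in any of the 7 comparisons, and between senECs and control ECs 22 of 33 fold changes were above 0 (median 0.06), against 49.2% of all rows. An unadjusted p below 0.05 was found for 2 of 33, against 6.61% of all rows. POLRMT, the mitochondrial RNA polymerase, was at 77.6 ± 11.6 CPM with control ECs and 82.3 ± 5.90 CPM with senECs (SD, n = 3), a log2 difference of 0.08 ± 0.13 (edgeR, adjusted p = 0.909). TFAM, which packages mitochondrial DNA and opens its promoters, was at 52.3 ± 2.97 CPM with control ECs and 50.1 ± 0.646 CPM with senECs (SD, n = 3), a difference of -0.06 ± 0.10. TFB2M, which melts the promoter, differed by 0.07 ± 0.10 and TEFM, the elongation factor, by 0.17 ± 0.16. None of these 4 passed the test.

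Of 39 genes for processing and turnover of mitochondrial RNA, 0 passed edgeR's test in any comparison. Between senECs and control ECs 21 of 39 fold changes were above 0 (median 0.04) (all rows 49.2%) and 1 of 39 had an unadjusted p below 0.05 (background 6.61% of all rows). LRPPRC and SLIRP, which together stabilize mitochondrial mRNAs, differed by -0.01 ± 0.10 and 0.29 ± 0.17 (log2, standard error). ELAC2, which cuts the end of tRNAs from the precursor, differed by 0.12 ± 0.10. MTPAP, the poly(A) polymerase, differed by -0.09 ± 0.12 and PNPT1, an RNA-degrading enzyme, by -0.07 ± 0.09. The edgeR adjusted p-values were 0.988 for LRPPRC, 0.732 for SLIRP, 0.807 for ELAC2, 0.890 for MTPAP and 0.899 for PNPT1.

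The nuclear partners of the mitochondrial mRNAs lay mostly on the same side of 0 in the senEC comparisons. For 73 nuclear subunits of complexes I, III, IV and V, 70 of 73 fold changes were above 0 (median 0.25) between senECs and control ECs (all rows 49.2%), next to the mRNA median of 0.26. Against mono-culture 66 of 73 fold changes were above 0 (median 0.22) with senECs (all rows 48%), and for EGCG-treated senECs against senECs 6 of 73 fold changes were above 0 (median -0.16) (all rows 49.9%). The last value exceeded in size the mRNA median of -0.06 in that comparison. For 78 proteins of the mitochondrial ribosome 71 of 78 fold changes were above 0 (median 0.18) between senECs and control ECs, against 49.2% of all rows. No gene of either list passed edgeR's test in any comparison. At an unadjusted p below 0.05 there were 18 of 73 and 16 of 78 between senECs and control ECs, against a background of 6.61% of all rows. Members of these lists were not tested as sets. All fold changes of a comparison share the same libraries, so the counts are not 73 or 78 separate observations. How far they depended on single libraries was not examined.

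Marker genes were read to check the labelled cell type. Of 16 monocyte markers, 15 had a mean above 1 CPM, with CD68 below it, and the summed level of all 16 was 2814 to 3982 CPM per library. CD14, the lipopolysaccharide co-receptor, and CEBPB, a myeloid transcription factor, were higher with senECs than in mono-culture, by 2.09 ± 0.42 (log2, edgeR, adjusted p = 0.0363) and 0.64 ± 0.13 (adjusted p = 0.0317). FCGR1A, an Fc receptor, passed the test for all co-cultures against mono-culture, at 0.55 ± 0.12 (edgeR, adjusted p = 0.0348), as did CD14 and CEBPB. Of the 16 markers, 12 were higher and 4 lower with senECs than in mono-culture, and 2 passed (0.309% of all rows). For all co-cultures against mono-culture 10 were higher and 6 lower, and 3 passed (0.723% of all rows). Of 14 endothelial markers, VWF, ESAM and EGFL7 had a mean above 1 CPM. Summed, all 14 gave 21.9 to 27.9 CPM in mono-culture, 25.5 to 27.9 with control ECs, 26.1 to 34.8 with senECs and 25.8 to 28.9 with EGCG-treated senECs. The defining marker CDH5 reached at most 0.0635 CPM and KDR 0.373 CPM in any library, and MMRN1 was at 0 in all.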

How the data were processed

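According to the labels, TRIzol RNA of THP1 cells was made into mRNA libraries and sequenced as paired reads. The table that the authors deposited holds raw counts by gene symbol. Reads had been cleaned and mapped with HISAT2 (hg38, per the submitters' processing notes), and the counting program, annotation and strand setting were not given in the sources used here. A total of 12 columns matched described samples, and 4 further columns were not used. Library totals were 15439836 to 22092600 counts, so that a count of 0 allows up to 0.132 to 0.191 CPM (3 counts, counting error only).

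The 25873 rows with a total of at least 10 counts were tested with edgeR 4.0.16 (TMM, quasi-likelihood) in R 4.3.3, 12 libraries in 1 model with the group as its only term, 8 residual degrees of freedom, and Benjamini-Hochberg adjustment over all rows. Standard errors were taken as the absolute log2 fold change over the root of F. The 7 comparisons share libraries. An exact permutation test of 3 against 3 libraries cannot go below p = 0.1. DESeq2 1.42.0, whose adjusted p was missing for 8 to 11 members in comparisons with mono-culture, its size factors, scaling over nuclear rows, no filter, only the libraries compared, replicate blocks and leaving out each library were alternatives. Tested on simulated counts of 24981 genes (senECs against control ECs), edgeR recovered 186 of 200 genes changed 2-fold with 8 false calls. The changed genes were drawn only from rows above a minimum mean CPM that most of the tRNAs did not reach. Genes were simulated independently of each other, without replicate effects or a library that stands apart. Recovery of smaller differences, such as the log2 0.05 to 0.33 of the mRNAs in that comparison, was not tested.

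Gene models and sequences came from GENCODE release 29 (GRCh38), and all 37 symbols matched. Named were all MT- mRNAs and rRNAs, tRNAs and nuclear copies with a mean of at least 10 counts, list genes past the threshold, and 9 core factors (POLRMT to PNPT1). MT-TA, other tRNAs under a mean of 10 counts and the nuclear rows that stood out with the rRNAs were named after their values were seen. The members and lists were chosen with earlier results of these data known. A listed gene, MTRES1, was not matched in the table. No library differed from another by less than sampling noise. Replicate numbers did not pair the libraries by the rule used (a correlation of deviations over 0.1 in every pair). The pairs below that value were all of replicate number 2.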

Additional observations from a re-analysis of the deposited data

How the results depend on the processing

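Counts of calls are given in the order control ECs, senECs, EGCG-treated senECs and all co-cultures against mono-culture, senECs against control ECs, EGCG-treated senECs against senECs and against control ECs. Over all rows edgeR called 37, 80, 55, 187, 0, 0, 0. DESeq2 called 120, 347, 230, 436, 0, 0, 0, no filter on low counts gave 223, 588, 377, 582, 114, 14, 43, and fits of only the libraries compared gave 52, 20 and 35 for the first 3 comparisons. With 1 library left out the ranges were 11 to 44, 19 to 255, 12 to 100, 37 to 244, 0 to 1, 0 to 0, 0 to 1. The lowest counts came without replicate 2 of mono-culture for control ECs, EGCG-treated senECs and all co-cultures and without replicate 2 of the senECs for senECs. The highest came without senEC replicate 5 for control ECs and EGCG-treated senECs and without senEC replicate 1 for the other comparisons with mono-culture. Of the members, 0 were called in all 7 comparisons by edgeR, by DESeq2, with its size factors, with scaling over nuclear rows and with each library left out. Fits of only the libraries compared, made for the 6 comparisons of 2 groups, also called 0 members. Without a filter 2, 3, 0, 1, 2, 0, 2 members were called. In that fit the standard error of the MT-RNR1 log2 fold change for control ECs against mono-culture was 0.11, against 0.49 with the filter.

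The replicate block changed more. Same-numbered libraries had correlations of deviations from 0.0319 to 0.577, 10 of 14 pairs above 0.1, and 8 of 12 libraries correlated best with one of their own number, which is a hint from the data and not from the design. With the block, 469, 709, 424, 824, 153, 13, 34 rows and 3, 11, 7, 11, 6, 0, 2 members were called. For control ECs against mono-culture the 3 members were MT-RNR1, MT-RNR2 and MT-TH. The standard error of MT-RNR1 there was 0.097, against 0.49 without the block, where its fold change rested on 1 library. Calls with the block therefore do not show that a difference holds beyond single libraries. Number 3 occurs only in mono-culture and with control ECs, and number 5 only in the senEC groups. In this block the senEC groups are therefore compared directly with mono-culture and control ECs only within numbers 1 and 2. With numbers 3 and 5 joined in the block, 400, 1407, 782, 1243, 268, 1, 60 rows and 1, 7, 3, 4, 3, 0, 2 members were called, and MT-RNR1 reversed to 0.0454 (log2) for senECs against mono-culture.

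Leaving out 1 library, the median mRNA log2 fold change ranged over 0.00646 to 0.15, 0.24 to 0.37, 0.0582 to 0.41, 0.16 to 0.28, 0.16 to 0.30, -0.25 to 0.0972, -0.00646 to 0.32 in the same order. Signs reversed with 1 library left out for MT-RNR2 with control ECs against mono-culture (-0.13 to 0.75), senECs against control ECs (-0.87 to 0.00335) and EGCG-treated senECs against control ECs (-0.84 to 0.0481), each without replicate 2 with control ECs, for MT-RNR1 with senECs against mono-culture (-0.26 to 0.21), and for MT-ND4L with senECs against control ECs (-0.00664 to 0.0722). Of the 34 fold changes of mRNAs and rRNAs followed through the alternatives, all others kept their sign. They were those of all mRNAs and rRNAs for senECs against mono-culture and against control ECs. For control ECs against mono-culture and EGCG-treated senECs against control ECs only the rRNAs were followed. The signs of single mRNAs in the remaining comparisons were not followed. The mRNA share of control ECs was 3.39% over nuclear counts. Without complex IV mRNAs the shares were 1.72%, 1.81%, 2.03% and 2.01% in the order mono-culture, control, senEC and EGCG-treated groups, by construction of a smaller sum. The causes of the other differences between settings were not tested. Depth limits the tRNAs below a mean of 10 counts.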
